A study of Mus musculus with 16 samples.

Results

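The difference between IRF8KO and WT microglia was compared between postnatal day 9 (P9) and postnatal day 14 (P14) across all genes, with macrophage genes described apart from neuronal and glial ones. The comparison used 12 of the 16 libraries of the series, with 3 WT and 3 IRF8KO libraries at each of the 2 ages. The other 4 libraries, 2 WT and 2 IRF8KO from animals of 3 months, are labelled as a separate batch and entered the filter on low counts, the scaling and the estimate of spread, but not the contrast. Every library was made from total RNA of microglia of female mice that were isolated without enzymes, and sorted by flow cytometry; no treatment is listed. The strain, the sorting gate and the deleted part of Irf8 are not given in the sources used here, and the labels do not say which libraries came from separate animals, so p-values measure the spread between these libraries. The quantity tested was an interaction on the log2 scale: the IRF8KO minus WT difference at P14 minus the same difference at P9. A positive value means that the genotype difference was higher at P14, and a negative value that it was lower. Of 55536 genes counted, 18295 passed the filter on low counts and were tested, and a gene was called at a Benjamini-Hochberg adjusted p below 0.05 by edgeR's quasi-likelihood test, which gave every adjusted p below.

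IRF8 belongs to the interferon regulatory factors, proteins that switch genes on or off in myeloid cells. Microglia need it to mature, and it often binds DNA together with PU.1, another macrophage factor. Microglia divide in the brain after birth and, as they leave the cell cycle, take on the receptors and transporters of the mature resting cell. In the same period they engulf dying cells, myelin debris and synapses. Synaptic, axonal and myelin transcripts are products of neurons, astrocytes and oligodendrocytes.

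Each of the 12 libraries held 10.4 to 14.8 M reads assigned to genes. Levels are given as CPM, read counts per 1e+06 reads after scaling of library sizes, in the order of replicates 1, 2 and 3. Library 3 of IRF8KO P14 stood apart: its log2 CPM correlated with those of its replicates at 0.861 at the lowest, against a median of 0.968 within groups. Uniquely mapped reads that fell outside genes were also uneven in share, with a mean of 22.4% in IRF8KO P14, 13.7% in WT P9, 9.99% in IRF8KO P9 and 9.71% in WT P14. Of 25 lower calls in the macrophage lists, 0 kept their call with that share as a covariate. The share was higher in each IRF8KO P14 library than in any other P9 or P14 library, so it moved with the tested contrast. Fits with it as a covariate, here and below, therefore cannot tell the effect of the share from the interaction. Whether a call was kept or lost in them is given as a description only. Reads of Irf8 itself (ENSMUSG00000041515.10, chromosome 8, bases 120736358 to 120756694 on the plus strand) were present in every library. Its levels were 538, 714 and 639 CPM in WT P9, 1019, 1088 and 882 in IRF8KO P9, 1214, 881 and 734 in WT P14 and 602, 681 and 893 in IRF8KO P14. The IRF8KO libraries were above WT at P9 and overlapped with WT at P14, with an interaction of -1.04 ± 0.46 (SE, adjusted p = 0.119). Reads summed over the gene cannot check a deletion of part of it, so genotype here is that of the label.

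Most of the called changes in the genotype difference between the 2 ages were upward. An interaction was called higher for 3334 genes, which is 18.2% of those tested, and lower for 522, which is 2.85%. The lower count was unsteady: it was 60, 330 and 204 without WT P9 replicates 1, 2 and 3, 73, 201 and 286 without those of IRF8KO P9, 187, 261 and 630 without those of WT P14, 163, 367 and 1123 without those of IRF8KO P14, and 1724 in the 12 libraries fitted alone. At P9 alone, 778 genes were higher in IRF8KO (4.25%) and 2077 lower (11.4%). At P14 alone, 4235 were higher (23.1%) and 1987 lower (10.9%). The median interaction over all genes was 0.30 with TMM scaling and 0.69 when libraries were scaled to the pan-macrophage list, so the zero of the scale moves with the scaling, and the latter gave 3670 higher and 174 lower calls. With TMM scaling the median was -0.06 once the 3262 genes with 3 reads or fewer in a group were left out.

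The higher and lower calls had different orders of group levels. Of the 3334 higher calls, 3128 (93.8%) had IRF8KO P14 and WT P9 as the groups with the 2 highest means, 2663 stayed below 10 CPM in every group, and 1910 had a group with 3 reads or fewer. Of the 522 lower calls, 0 had that order, 490 reached 10 CPM in some group, and 457 had IRF8KO P14 as the lowest group. Genes called in both ages and in opposite directions numbered 1338. Of these, 1337 were lower in IRF8KO at P9 and higher at P14, with 58 from the neuronal and glial lists and 2, Pfkp and Tgfb2, from the macrophage lists. The 1 gene that went from higher to lower was Hs3st2.

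Macrophage genes are given here beside neuronal and glial ones, and the difference between them was not tested. The 16 macrophage lists held 403 tested genes, of which 19 (4.71%) were called higher and 25 (6.20%) lower, beside 18.2% and 2.85% of all genes, with a median interaction of -0.29. The 9 of these 19 higher genes that reached 10 CPM in some group included Gpnmb, Acaca, Apoc1 and C3, and all 25 lower genes reached it. The shares of all genes, here and below, are not matched for level. Of the 403 genes 344 reached 10 CPM in some group, against 9013 of all 18295. Among these 9013 genes, 671 were called higher and 490 lower. Of the 25 lower genes, 13 came from the cell cycle list, where 35.1% of 37 genes were called lower. The neuronal and glial lists held 136 tested genes, of which 103 (75.7%) were called higher and 0 lower. For these 136 genes, 1 was lower at an unadjusted p below 0.05, and DESeq2 and limma-voom each called 0 lower. Scaled to the pan-macrophage list, 26 macrophage genes were called higher and 16 lower, with a median of 0.11. The 25 lower calls became 8 without WT P9 replicate 1, 15 without WT P9 replicate 3, 7 and 15 without IRF8KO P9 replicates 1 and 2, 15 and 16 without WT P14 replicates 1 and 2, 13 and 39 without IRF8KO P14 replicates 1 and 3, and 73 in the 12 libraries alone. The 19 higher calls became 11 without WT P9 replicate 2.

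**Figure D1:**
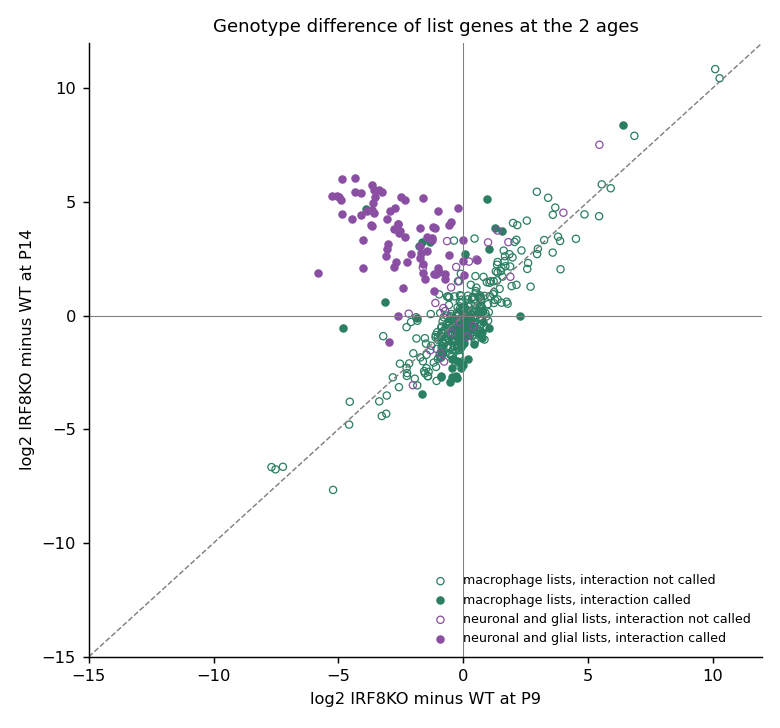
The log2 difference between IRF8KO and WT at P9 (x axis) and at P14 (y axis) for 375 macrophage-list genes (green) and 101 neuronal or glial ones (purple), each point a gene, filled where the interaction was called; 28 and 35 genes with 3 reads or fewer in a group are left out, and the dashed line marks equal differences. Most green points lie near the line, and most filled purple points lie at the upper left, lower in IRF8KO at P9 and higher at P14.

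Genes of cell division had the most lower calls among the macrophage lists. Of 37 cell cycle genes, 13 were called lower and 0 higher, with a median of -1.28. At P9, 1 of the 37 was higher in IRF8KO and 0 lower, whereas at P14 27 were lower and 0 higher. Of all genes, 4.25% were higher and 11.4% lower at P9, and 23.1% and 10.9% at P14. From P9 to P14, 31 of the 37 fell in IRF8KO and 0 were called in WT. The median change was -2.25 in IRF8KO and -0.90 in WT. Over all 18295 genes, 3363 rose and 974 fell in IRF8KO, against 85 and 700 in WT, so calls with age were fewer in WT throughout. Summed over the list, the levels were 2217, 2739.9 and 2341 CPM in WT P9, 2134, 1989.5 and 1527 in IRF8KO P9, 1441, 1688 and 1162 in WT P14 and 381, 385 and 379 in IRF8KO P14. The 3 IRF8KO P14 libraries lay close together and below each of the other 9. In sorted bulk RNA, fewer cells in cycle and less of these transcripts per cell cannot be told apart.

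Subunits of the replicative helicase were among the called genes. Mcm2, Mcm3, Mcm5 and Mcm6 encode parts of the ring that unwinds DNA ahead of the replication fork. Mcm2 (ENSMUSG00000002870.8, chromosome 6, bases 88883474 to 88898780 on the minus strand) was at 229, 326 and 274 CPM in WT P9, 227, 196 and 159 in IRF8KO P9, 177, 225 and 129.7 in WT P14 and 24.9, 29.6 and 16.3 in IRF8KO P14. IRF8KO libraries lay below WT at both ages, narrowly at P9 and by a wide gap at P14. The genotype difference of Mcm2 was -0.51 ± 0.35 (adjusted p = 0.396) at P9 and -2.91 ± 0.38 (adjusted p = 3.04e-05) at P14, and the interaction was -2.40 ± 0.50 (SE, adjusted p = 0.00190). Mcm5 was at 256, 382 and 331 CPM in WT P9, 277, 279 and 163 in IRF8KO P9, 166, 278 and 141 in WT P14 and 25.1, 25.9 and 39.3 in IRF8KO P14, so the genotypes overlapped at P9 and were apart at P14. Its interaction was -2.27 ± 0.55 (SE, adjusted p = 0.00604). Mcm3 gave -1.80 ± 0.41 (SE, adjusted p = 0.00403) with group means of 279.9, 153, 205 and 32.2 CPM in the order WT P9, IRF8KO P9, WT P14 and IRF8KO P14, and Mcm6 gave -1.48 ± 0.50 (SE, adjusted p = 0.0411). The calls of Mcm2, Mcm3 and Mcm5 held in each of the 12 fits without 1 library, whereas that of Mcm6 was lost in 10 of them.

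Of the other called genes, some act in replication and some in mitosis. Birc5, which encodes the mitotic protein survivin, was at 38.9, 47.2 and 38.2 CPM in WT P9, 51.6, 56.9 and 33.1 in IRF8KO P9, 27.9, 22.6 and 18.9 in WT P14 and 3.86, 4.99 and 9.68 in IRF8KO P14. The genotypes overlapped at P9, IRF8KO was below WT at P14, and the interaction was -2.10 ± 0.53 (SE, adjusted p = 0.00750). The mitotic kinase gene Plk1 (-2.39 ± 0.64, adjusted p = 0.0113), the ubiquitin conjugating enzyme gene Ube2c (-2.47 ± 0.66, adjusted p = 0.0109) and the spindle checkpoint gene Bub1b (-2.23 ± 0.56, adjusted p = 0.00757) were called as well. So were Uhrf1, a factor that maintains DNA methylation, Gins2, a helicase partner, the cyclin gene Ccne1, the factor E2f2 and the thymidine kinase gene Tk1. The calls of Birc5 and Ube2c held in each of the 12 fits without 1 library. Bub1b, Plk1, Gins2, E2f2, Ccne1, Uhrf1 and Tk1 lost theirs in 1, 2, 2, 3, 4, 4 and 9 of them, each without IRF8KO P9 replicate 1 and, except Bub1b, without WT P9 replicate 1. Mki67, the common marker of cycling cells, was not called: its interaction was 0.04 ± 0.85 (SE, adjusted p = 0.986), with means of 22.4, 12.8, 6.66 and 3.89 CPM in the same group order. Top2a was not called either (-0.91 ± 0.82, adjusted p = 0.459).

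Cdca7, a target of the MYC and E2F factors that was on none of the lists, had a lower value than any of these. It was at 42.4, 57.7 and 37.7 CPM in WT P9, 19.7, 16.998 and 14.8 in IRF8KO P9, 52.2, 44.6 and 35.4 in WT P14 and 1.97, 0.780 and 1.08 in IRF8KO P14. IRF8KO was below WT at both ages, and the interaction was -3.67 ± 0.60 (SE, adjusted p = 0.000236).

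Upstream sequences of 3 of these genes are shown because the genes moved together and because E2F factors, which drive genes of DNA replication, have a short known site. RefSeq promoter windows (build GRCm38.p6, 250 bases before to 50 after a start) were searched on both strands for the letters TTTCCCGC, TTTCGCGC, TTTGCCGC and TTTGGCGC. Matches on opposite strands can overlap and then form 1 longer run. The stretches below run 5′ to 3′ up to the base before the RefSeq start, with matches in capitals. They are chr8:75109341-75109508 on the plus strand for Mcm5, chr1:128359706-128359830 on the minus strand for Mcm6 and chr2:72476133-72476218 on the plus strand for Cdca7.
Mcm5: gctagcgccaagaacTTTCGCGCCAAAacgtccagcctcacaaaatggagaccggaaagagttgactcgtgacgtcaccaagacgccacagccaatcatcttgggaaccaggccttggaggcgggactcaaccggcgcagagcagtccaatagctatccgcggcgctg
Mcm6: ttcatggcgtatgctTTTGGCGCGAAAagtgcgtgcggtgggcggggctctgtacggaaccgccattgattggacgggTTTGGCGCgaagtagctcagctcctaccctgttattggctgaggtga
Cdca7: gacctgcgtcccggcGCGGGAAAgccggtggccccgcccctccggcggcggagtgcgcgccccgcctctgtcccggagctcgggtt
Mcm5 and Mcm6 each held an overlapping pair, Mcm6 held a further match, and Cdca7 held 1. A match was found in 10 of the 31 tested cell cycle genes with a window (32.3%) and in 517 of 11771 tested genes with a window (4.39%). Among the 13 called genes, 12 had a window and 5 held a match (E2f2, Mcm3, Mcm5, Mcm6 and Uhrf1), while the windows of Mcm2 and Birc5 held none. A match describes the letters in the window and is not evidence of binding.

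The cell cycle count depended on the libraries. It was 5 without IRF8KO P9 replicate 1 and 6 without WT P9 replicate 1, and 9 to 16 without any of the other 10 libraries. It was 10 with scaling to the pan-macrophage list. With the share of reads outside genes as a covariate it was 2, and 0 of the 13 genes kept their call. The Mcm2 value was then -0.93 (adjusted p = 0.232).

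**Figure D2:**
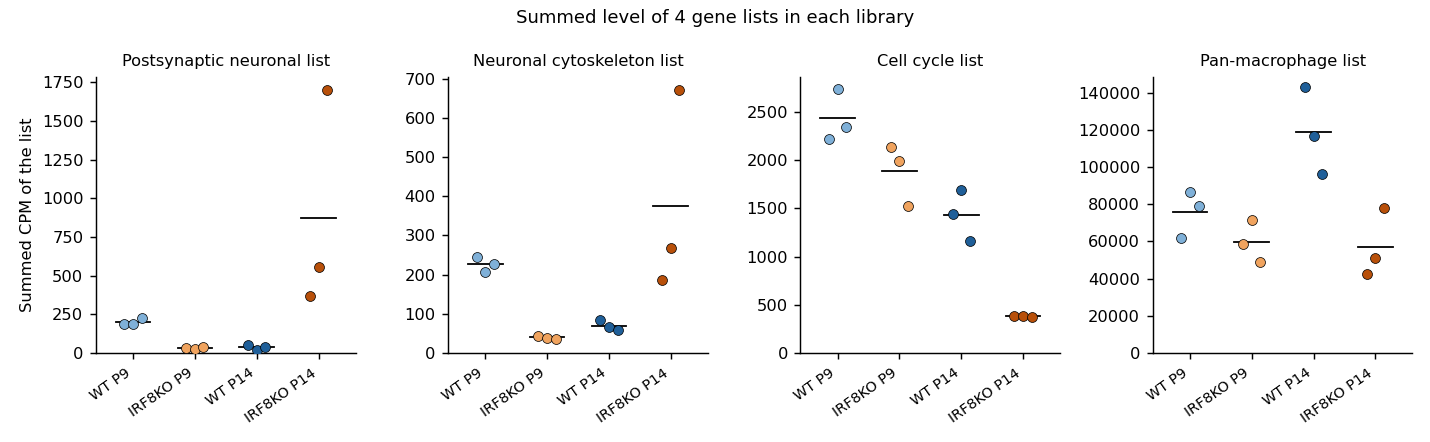
Summed CPM of 4 gene lists in each library (points, 3 per group, with the group mean as a line; y axes start at 0). The postsynaptic and neuronal cytoskeleton lists are high in WT P9 and IRF8KO P14, with IRF8KO P14 replicate 3 the highest, while the cell cycle list is lowest in the 3 IRF8KO P14 libraries.

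The core macrophage and resting microglia genes had few higher calls. At P9, 3 of 30 pan-macrophage and 12 of 34 homeostatic microglia genes were lower in IRF8KO and 0 higher. At P14, 10 and 20 were lower and 1 and 0 higher. Of all genes, 11.4% were lower at P9 and 10.9% at P14. The interaction was called higher for 1 pan-macrophage gene (3.33%) and lower for 3 (10%, median -0.58). It was called higher for 1 homeostatic gene and lower for 1 (2.94% each, median -0.43). The shares of all genes were 18.2% higher and 2.85% lower. The lower pan-macrophage genes included Coro1a, an actin regulator of leukocytes, at -1.86 ± 0.57 (SE, adjusted p = 0.0262) and the GTPase gene Rac2 at -1.50 ± 0.50 (SE, adjusted p = 0.0390). Coro1a was at 2143, 3139 and 2827 CPM in WT P9, 1979, 2562 and 1461 in IRF8KO P9, 3701, 3609 and 2473 in WT P14 and 435, 663 and 892 in IRF8KO P14. The genotypes overlapped at P9, and each IRF8KO library was below each WT library at P14. Coro1a lost its call without any 1 of 8 libraries, and Rac2 without any 1 of 9. Without 1 library the list had 0 to 7 lower calls, with 0 without 8 of the 12 libraries and 7 without IRF8KO P14 replicate 3. Well known markers were not called: the CSF1 receptor gene Csf1r gave -0.86 ± 0.52 (SE, adjusted p = 0.253), Tmem119 gave -0.54 ± 0.59 (SE, adjusted p = 0.544), the purine receptor gene P2ry12 gave 0.06 ± 0.99 (SE, adjusted p = 0.982) and the fractalkine receptor gene Cx3cr1 gave -0.94 ± 0.48 (SE, adjusted p = 0.176). P2ry12 means were 774, 173, 1004 and 234 CPM in the order WT P9, IRF8KO P9, WT P14 and IRF8KO P14, and the genotypes overlapped at P14. Rhob, the lower homeostatic gene, gave -1.28 ± 0.42 (SE, adjusted p = 0.0386) and lost its call without 9 of the 12 libraries.

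Sall1, a factor that defines microglia, was the higher homeostatic gene, and its value rests on very few reads. It was at 188, 148 and 153 CPM in WT P9 and 124, 194 and 235 in WT P14. IRF8KO P9 held 0 reads over the 3 libraries and IRF8KO P14 held 12 (0.219, 0.312 and 0.598 CPM). No fold is given for a group at 0 reads; the adjusted p of the interaction was 0.0481, and the call was lost in 11 of the 12 fits that left out 1 library.

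Transcription factor genes changed in both directions. Of 44 listed, 3 were called higher (6.82%) and 4 lower (9.09%), beside 18.2% and 2.85% of all genes. The 4 lower genes were Klf2, Etv5, Cebpd and Rxra. The 4 became 1 without WT P9 replicate 1 or IRF8KO P9 replicate 1 and 2 without WT P14 replicate 1 or IRF8KO P14 replicate 1, and the 3 became 1 without WT P9 replicate 2. Klf2 (ENSMUSG00000055148.7, chromosome 8, bases 72319033 to 72321656 on the plus strand), a factor tied to quiescence in leukocytes and to shear stress in vessels, was at 22.6, 33.7 and 22.9 CPM in WT P9, 123, 178 and 81.5 in IRF8KO P9, 34.3, 19.98 and 16.2 in WT P14 and 16.3, 18.7 and 35.5 in IRF8KO P14. Only IRF8KO P9 was raised: it lay above WT at P9, and the genotypes overlapped at P14. The difference was 2.27 ± 0.40 (adjusted p = 0.000836) at P9 and was not called at P14, for an interaction of -2.27 ± 0.55 (SE, adjusted p = 0.00576), which held in each of the 12 fits without 1 library but was -0.77 (adjusted p = 0.447) with reads outside genes as a covariate. Klf2 is known to respond to cell handling. The list of immediate early and dissociation genes had 1 call higher (5%) and 3 lower (15%) of 20, beside 18.2% and 2.85% of all genes. Its lower calls became 0 without WT P9 replicate 1 or IRF8KO P9 replicate 1, and its median was -0.86. Cebpd lost its call without any 1 of 8 libraries and Rxra without any 1 of 4. The lower handling genes included Zfp36 at -1.51 ± 0.40 (SE, adjusted p = 0.0118) and the chaperone gene Dnajb1 at -1.36 ± 0.44 (SE, adjusted p = 0.0350), which lost their calls without any 1 of 3 and 7 libraries. That list summed to 469.6, 609 and 495 CPM in WT P9, 1017, 1118 and 801 in IRF8KO P9, 1096, 795 and 756 in WT P14 and 549, 601 and 799.6 in IRF8KO P14, and its part in the Klf2 result was not tested.

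Etv5, an ETS family factor, was at 265, 319 and 294 CPM in WT P9, 304, 237 and 199 in IRF8KO P9, 564, 432 and 305 in WT P14 and 128, 133 and 69.1 in IRF8KO P14. The genotypes overlapped at P9, IRF8KO was below WT at P14, and the interaction was -1.73 ± 0.46 (SE, adjusted p = 0.0115); the call was lost without WT P9 replicate 1 or IRF8KO P9 replicate 1. The higher factors, Runx2, Pparg and Sall1, each had a group with 3 reads or fewer. Runx2 was at 0.586, 0.0822 and 0.668 CPM in WT P9, 11.8, 8.17 and 12.3 in IRF8KO P9, 0 in the 3 WT P14 libraries and 12.8, 16.7 and 8.13 in IRF8KO P14 (adjusted p of the interaction 0.0116). IRF8KO was above WT at both ages.

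TGF-beta signalling, which maintains the identity of microglia, had 2 genes called higher (10%) and 3 lower (15%) of 20, beside 18.2% and 2.85% of all genes. The 3 became 1 without WT P9 replicate 1 or IRF8KO P9 replicate 1. The ligand gene Tgfb1 was at 232, 308 and 287 CPM in WT P9, 367, 462 and 301 in IRF8KO P9, 501, 422 and 381 in WT P14 and 177, 239 and 132 in IRF8KO P14. The genotypes overlapped at P9 and IRF8KO was below WT at P14, with an interaction of -1.70 ± 0.45 (SE, adjusted p = 0.0115) that lost its call without WT P9 replicate 1 or IRF8KO P9 replicate 1. Eng, which encodes the co-receptor endoglin, was at 63.5, 91.6 and 74.1 CPM in WT P9, 22.4, 28.4 and 21.6 in IRF8KO P9, 182, 154 and 126 in WT P14 and 11.7, 16.8 and 14.5 in IRF8KO P14. IRF8KO was below WT at both ages, the WT mean was higher at P14 than at P9, and the interaction was -1.76 ± 0.43 (SE, adjusted p = 0.00628). Ski, a repressor of the pathway, gave -1.07 ± 0.35 (SE, adjusted p = 0.0344) and lost its call in 11 of the 12 fits without 1 library. The higher members, Tgfb2 and the integrin gene Itgb8, stayed under 2 CPM in all 12 libraries.

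Genes of the disease and axon tract associated state and of lipid handling had higher calls only, at shares near that of all genes. Of 32 disease and axon tract genes, 5 were higher and 0 lower (median 0.52), and of 24 LXR target and lipid genes 4 were higher and 0 lower (median -0.23). These shares, 15.6% and 16.7%, are near the 18.2% of all genes, of which 2.85% were called lower. Fabp5 counts in both lists. Estimates were above 0 for 24 and below 0 for 8 of the 32 genes, and above 0 for 10 and below 0 for 14 of the 24. The first higher count became 3 without WT P9 replicate 2 or 3, and the second 2 without WT P9 replicate 2, WT P14 replicate 2 or IRF8KO P14 replicate 3. Without IRF8KO P14 replicate 3 the disease and axon tract list had 5 higher calls and 1 lower. Gpnmb (ENSMUSG00000029816.10, chromosome 6, bases 49036546 to 49070929 on the plus strand), a transmembrane glycoprotein of lipid-laden macrophages, was at 12.3, 40.9 and 9.42 CPM in WT P9, 38.8, 51.8 and 30.1 in IRF8KO P9, 1.64, 0.515 and 0.792 in WT P14 and 29.1, 33.1 and 38.97 in IRF8KO P14. WT P14 stood below the other 3 groups, and the genotypes overlapped at P9. Gpnmb fell in WT by 4.42 ± 0.62 on the log2 scale (adjusted p = 0.00433), its change in IRF8KO was -0.26 ± 0.51 (adjusted p = 0.768), and the interaction was 4.16 ± 0.79 (SE, adjusted p = 0.000850). Its call held in each fit without 1 library and with the outside-gene share as a covariate (5.73, adjusted p = 0.00157).

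Igf1, the growth factor gene of axon tract microglia, had means of 10.1, 10.6, 1.90 and 12.5 CPM in the order WT P9, IRF8KO P9, WT P14 and IRF8KO P14. Its interaction was 2.64 ± 0.92 (SE, adjusted p = 0.0492), and the call was lost in 9 of the 12 fits without 1 library. The fatty acid binding gene Fabp5 was at 29.2, 32.4 and 31.6 CPM in WT P9, 9.75, 9.15 and 6.89 in IRF8KO P9, 11.5, 8.92 and 8.95 in WT P14 and 6.05, 7.88 and 13.3 in IRF8KO P14. Here WT P9 was the high group, IRF8KO was below WT at P9 and the genotypes overlapped at P14, with an interaction of 1.74 ± 0.52 (SE, adjusted p = 0.0243). Its call was lost without any 1 of WT P9 replicates 2 and 3, WT P14 replicate 2 and IRF8KO P14 replicate 3. Other members of the state were not called: Spp1 gave 1.03 ± 0.73 (SE, adjusted p = 0.337), Itgax gave 0.44 ± 0.70 (SE, adjusted p = 0.692) and Cst7 gave 0.47 ± 0.60 (SE, adjusted p = 0.608).

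In the lipid list, Acaca (ENSMUSG00000020532.18, chromosome 11, bases 84129672 to 84401651 on the plus strand), the acetyl-CoA carboxylase that starts fatty acid synthesis, was at 11.3, 5.59 and 8.90 CPM in WT P9, 20.2, 18.1 and 37.7 in IRF8KO P9, 2.67, 5.06 and 5.94 in WT P14 and 77.6, 67.8 and 35.1 in IRF8KO P14. IRF8KO was above WT at both ages and the gap widened, from 1.55 ± 0.40 (adjusted p = 0.0124) to 3.72 ± 0.44 (adjusted p = 1.28e-05), for an interaction of 2.16 ± 0.56 (SE, adjusted p = 0.00977). With reads outside genes as a covariate it was 1.10 (adjusted p = 0.329). Apoc1, an apolipoprotein gene, was at 10.5, 14.9 and 10.8 CPM in WT P9, 1054, 1114 and 946 in IRF8KO P9, 6.57, 3.26 and 4.59 in WT P14 and 896, 1097 and 2871 in IRF8KO P14. Both ages had IRF8KO far above WT, and the interaction of 1.97 ± 0.59 (SE, adjusted p = 0.0254) lost its call without WT P9 replicate 2, WT P14 replicate 2 or IRF8KO P14 replicate 3. Apoe, its abundant neighbour, was not called (1.62 ± 0.68, adjusted p = 0.101), with means of 12906, 75933, 7498 and 135634 CPM. Cholesterol synthesis had 0 calls of 24 genes by edgeR, with 3 higher and 3 lower at an unadjusted p below 0.05 and 3 higher by DESeq2, while fits without 1 library called 0 to 2 higher, and Srebf2, its main regulator, gave -1.11 ± 0.42 (SE, adjusted p = 0.0704).

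Immune effector genes had few calls. The complement gene C3 was at 12.5, 24.1 and 13.3 CPM in WT P9, 31.6, 29.7 and 40.98 in IRF8KO P9, 8.41, 4.89 and 6.10 in WT P14 and 54.3, 64.4 and 27.5 in IRF8KO P14. IRF8KO was above WT at both ages, and the interaction was 1.88 ± 0.53 (SE, adjusted p = 0.0165); the call was lost without WT P9 replicate 2, WT P14 replicate 2 or IRF8KO P14 replicate 2. Of 36 interferon stimulated genes, 12 were higher in IRF8KO at P9 and 18 at P14, beside 4.25% and 23.1% of all genes. The interaction was called higher for 2 (5.56%) and lower for 0 (median 0.71), beside 18.2% and 2.85% of all genes. The 2 became 1 without WT P9 replicate 2, IRF8KO P9 replicate 2, WT P14 replicate 2 or IRF8KO P14 replicate 1 and 4 without IRF8KO P14 replicate 3, and DESeq2 called 5. The 2 called were Mx1, an antiviral GTPase gene, and the nucleic acid sensor gene Zbp1. Mx1 was at 4.49, 3.29 and 3.49 CPM in WT P9, 0.359, 0 and 0 in IRF8KO P9, 2.87, 3.94 and 4.59 in WT P14 and 4.44, 0.780 and 2.51 in IRF8KO P14. It was nearly absent in IRF8KO P9 alone, and its interaction was 4.27 ± 1.19 (SE, adjusted p = 0.0149). Zbp1 gave 2.56 ± 0.89 (SE, adjusted p = 0.0489) and lost its call without 10 of the 12 libraries. Of 37 cytokine, chemokine and sensor genes, 0 were called higher and 2 lower (5.41%), beside 18.2% and 2.85% of all genes. The lower count was 0 without WT P9 replicate 1 or IRF8KO P9 replicate 1, and 4 without IRF8KO P14 replicate 3. The 2 were Tgfb1 and the adaptor gene Myd88 (-1.48 ± 0.46, adjusted p = 0.0274), and Myd88 lost its call without any 1 of 7 libraries. MHC class I had 0 calls of 18 genes by edgeR, DESeq2 and limma-voom, with 3 lower at an unadjusted p below 0.05 and 2 lower calls without IRF8KO P14 replicate 3, and MHC class II 1 higher of 13, Ciita, the class II transactivator, which stayed at or below 5.98 CPM and lost its call without any 1 of 6 libraries.

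Border-associated macrophage genes had a genotype difference at each age and no called change in it. They were higher in IRF8KO for 13 of 18 genes at P9 and 11 at P14, beside 4.25% and 23.1% of all genes. For the interaction, edgeR, DESeq2 and limma-voom each made 0 calls, with 1 higher and 2 lower at an unadjusted p below 0.05 by edgeR (median 0.14). Pf4, the chemokine gene of these macrophages, was at 1.43, 2.14 and 3.93 CPM in WT P9, 2913, 4152 and 2288 in IRF8KO P9, 2.36, 0.858 and 1.35 in WT P14 and 1251, 1683 and 3336 in IRF8KO P14. Its interaction was 0.15 ± 0.75 (SE, adjusted p = 0.911), and the scavenger receptor gene Stab1 gave -0.97 ± 0.44 (SE, adjusted p = 0.128). The lysosome list also had 0 calls of 35 genes by the 3 tools, with 1 lower at an unadjusted p below 0.05 and 2 lower calls without IRF8KO P14 replicate 3. Its most abundant members included the protease gene Lgmn (-0.69 ± 0.55, adjusted p = 0.401) and Ctsd (-0.30 ± 0.63, adjusted p = 0.774), whose exons overlap a second annotated gene over 34.4% of their length.

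**Figure D3:**
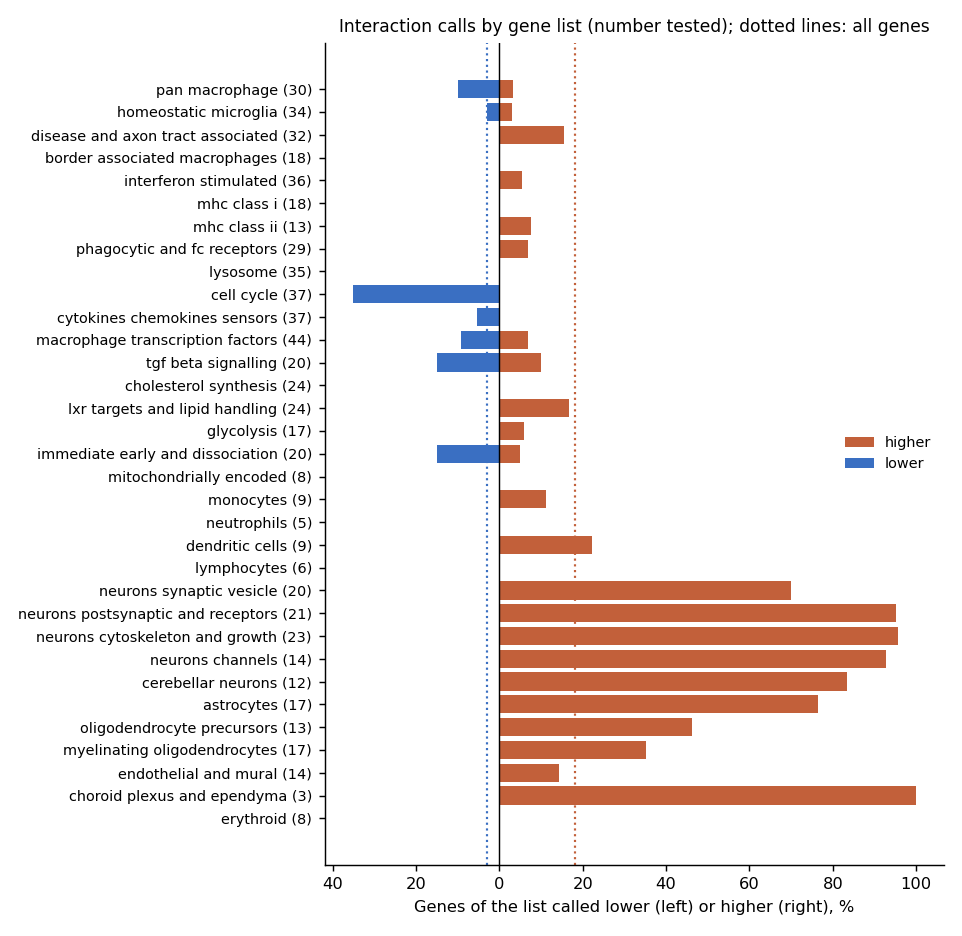
The percentage of genes in each list whose interaction was called higher (right, orange) or lower (left, blue), with the number tested in brackets and the shares of all genes as dotted lines. The neuronal lists and astrocytes lie far beyond the dotted line on the right, and the cell cycle list lies farthest to the left.

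Genes outside the lists gave the largest lower values. Tgm2 (ENSMUSG00000037820.15, chromosome 2, bases 158116402 to 158146436 on the minus strand), the transglutaminase gene, was at 0.260, 0.329 and 0.0742 CPM in WT P9, 36.9, 46.3 and 20.5 in IRF8KO P9, 13.4, 11.1 and 9.19 in WT P14 and 48.5, 45.2 and 44.5 in IRF8KO P14. WT went from near 0 at P9 (9 reads over 3 libraries) to a mean of 11.3 CPM at P14, a rise of 5.61 ± 0.55 (adjusted p = 0.000166), while IRF8KO was high at both ages and its change was 0.41 ± 0.39 (adjusted p = 0.483). IRF8KO stayed above WT, by 7.23 ± 0.56 (adjusted p = 3.51e-07) at P9 and 2.03 ± 0.40 (adjusted p = 0.00109) at P14, and the interaction was -5.20 ± 0.67 (SE, adjusted p = 2.52e-05). The gene shares 21.8% of its exon length with Gm20412.

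Hs3st2 (ENSMUSG00000046321.8, chromosome 7, bases 121391859 to 121501770 on the plus strand), a heparan sulfate sulfotransferase gene, crossed over. It was at 2.60, 3.04 and 5.57 CPM in WT P9, 28.3, 45.6 and 19.4 in IRF8KO P9, 31.7, 23.2 and 22.4 in WT P14 and 8.82, 10.8 and 13.5 in IRF8KO P14. IRF8KO was above WT at P9 by 3.05 ± 0.44 (adjusted p = 0.000143) and below it at P14, at -1.23 ± 0.41 (adjusted p = 0.0276). WT rose by 2.78 ± 0.43 (adjusted p = 0.00492), IRF8KO fell, at -1.50 ± 0.41 (adjusted p = 0.0126), and the interaction was -4.28 ± 0.59 (SE, adjusted p = 4.83e-05). Tgm2 and Hs3st2 also kept their calls with the outside-gene share as a covariate, at -3.51 (adjusted p = 0.00106) and -2.92 (adjusted p = 0.00961).

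Igfbp4 (ENSMUSG00000017493.12, chromosome 11, bases 99041244 to 99054392 on the plus strand), which encodes a secreted protein that binds insulin-like growth factors, fell in IRF8KO. It was at 1069, 1509 and 1437 CPM in WT P9, 632, 774 and 419 in IRF8KO P9, 1337, 1496 and 1047 in WT P14 and 52.97, 90.7 and 80.8 in IRF8KO P14. The change with age was -0.05 ± 0.37 (adjusted p = 0.964) in WT and -3.02 ± 0.40 (adjusted p = 4.45e-05) in IRF8KO, and the interaction was -2.97 ± 0.53 (SE, adjusted p = 0.000512). Jup, the junction protein plakoglobin, was at 200.3, 279 and 290.4 CPM in WT P9, 173, 158 and 91.8 in IRF8KO P9, 494, 429 and 349.8 in WT P14 and 44.5, 63.9 and 39.8 in IRF8KO P14 and gave -2.24 ± 0.50 (SE, adjusted p = 0.00331). The amino acid transporter gene Slc7a5 was at 159, 238 and 216 CPM in WT P9, 210.4, 233 and 145 in IRF8KO P9, 302, 280.2 and 222 in WT P14 and 51.2, 72.4 and 50.7 in IRF8KO P14 and gave -2.15 ± 0.49 (SE, adjusted p = 0.00382). For Igfbp4, Jup and Slc7a5 the IRF8KO P14 libraries were the lowest of the 12. With reads outside genes as a covariate the 3 values were -1.45, -0.70 and -0.58, none past the threshold.

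Of the other lower genes, Ccdc8 and Siglecg had little or no signal left in IRF8KO P14. Ccdc8 was at 33.04, 28.04 and 20.4 CPM in WT P14 and 0.510, 0.390 and 0 in IRF8KO P14, with an interaction of -4.02 ± 0.94 (SE, adjusted p = 0.00449). Siglecg, an inhibitory sialic acid receptor gene, was at 33.04, 26.3 and 25.3 CPM in WT P14 and 0.219, 0.468 and 0 in IRF8KO P14, with -3.33 ± 1.04 (SE, adjusted p = 0.0285). Both were already lower in IRF8KO at P9, at -2.31 ± 0.61 (adjusted p = 0.0146) and -3.44 ± 0.69 (adjusted p = 0.00238). Siglecg lost its call without 5 of the libraries: replicate 1 of each of the 4 groups and IRF8KO P9 replicate 2. The endosomal GTPase gene Rab5c (-2.12 ± 0.55, adjusted p = 0.00911) lost it without WT P9 replicate 1 or IRF8KO P9 replicate 1, and Zfpm1, which encodes the GATA cofactor FOG1, gave -2.12 ± 0.54 (SE, adjusted p = 0.00853).

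**Figure D4:**
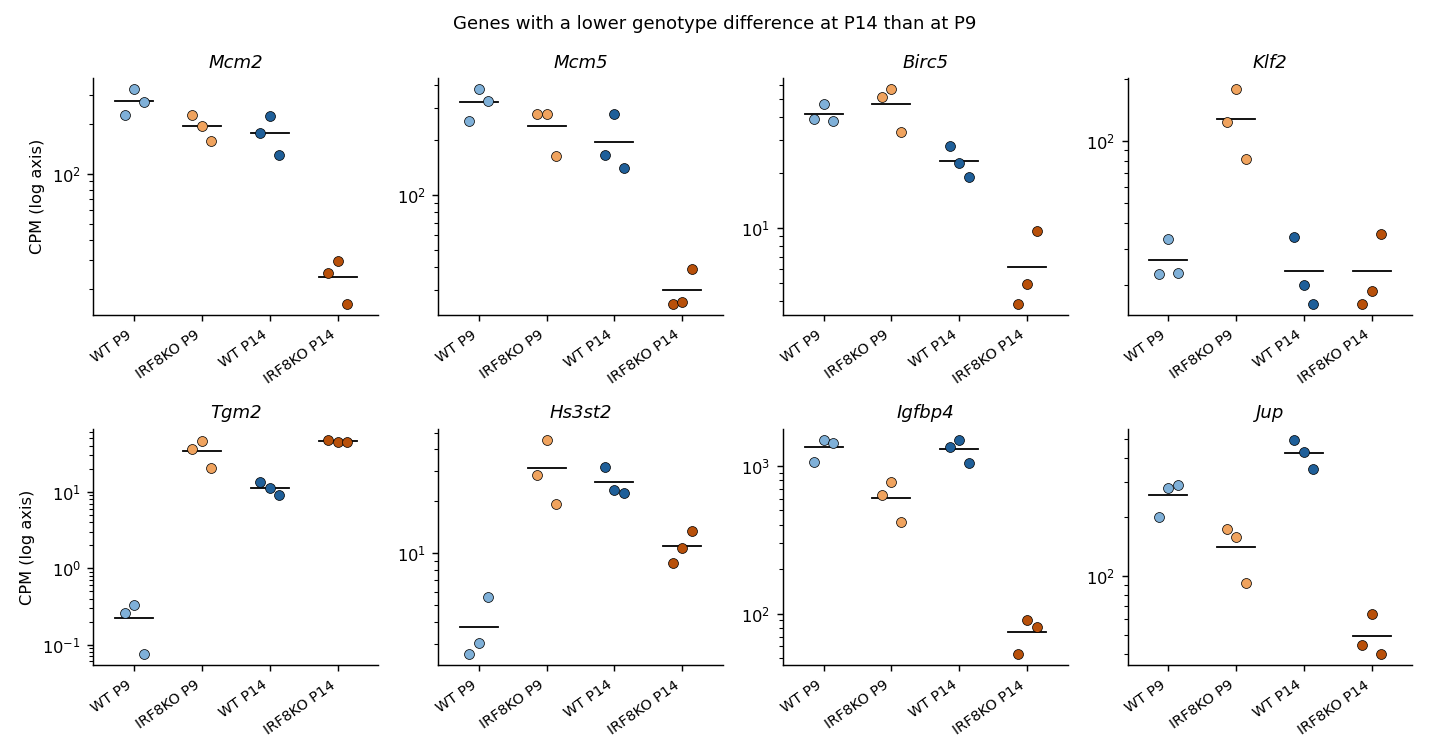
CPM on a log axis in each of the 12 libraries (points, with group means as lines) for 8 genes with a called lower interaction. IRF8KO P14 is the lowest group for Mcm2, Mcm5, Birc5, Igfbp4 and Jup, WT P9 is the lowest for Tgm2 and Hs3st2, and Klf2 is raised in IRF8KO P9 only.

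Neuronal genes had a level that followed neither age nor genotype alone. Most of those tested were lower in IRF8KO than in WT at P9 and higher at P14. The mean log2 CPM over the neuronal lists ran from 1.89 to 2.11 in WT P9, from -0.48 to -0.13 in IRF8KO P9, from -0.20 to 0.51 in WT P14 and from 2.61 to 4.22 in IRF8KO P14. Of 89 tested neuronal genes, 78 were called higher (87.6%) and 0 lower, beside 18.2% and 2.85% of all genes. At P9, 2 were higher and 59 lower in IRF8KO, and at P14 77 were higher and 2 lower. The median interaction was 7.33 as fitted and 6.45 with groups of 3 reads or fewer set to 3 reads.

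Nearly all receptor and channel genes of the synapse were called. Of 21 postsynaptic genes 20 were called higher, and of 14 channel genes 13. The postsynaptic list summed to 186, 191 and 225 CPM in WT P9, 34.8, 26.6 and 37.95 in IRF8KO P9, 50.8, 21.95 and 39.2 in WT P14 and 370.1, 553 and 1699 in IRF8KO P14. Gria2 (ENSMUSG00000033981.14, chromosome 3, bases 80681450 to 80802835 on the minus strand), a subunit of the AMPA glutamate receptor, was at 40.9, 38.4 and 50.5 CPM in WT P9, 1.29, 0.327 and 1.69 in IRF8KO P9, 8.21, 2.49 and 4.59 in WT P14 and 77.1, 117 and 382 in IRF8KO P14. The groups did not overlap at either age, and IRF8KO P14 replicate 3 was the highest library. The interaction of Gria2 was 10.50 ± 0.94 (SE, adjusted p = 1.56e-06). The NMDA receptor subunit gene Grin2b gave 8.76 ± 0.81 (SE, adjusted p = 1.87e-06), the AMPA subunit gene Gria1 9.49 ± 0.87 (SE, adjusted p = 1.69e-06) and the calcium channel gene Cacna1b 10.85 ± 0.87 (SE, adjusted p = 1.04e-06).

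Genes of the synaptic vesicle and of the axon followed the same order. Of 20 vesicle genes 14 were called higher, and of 23 cytoskeleton and growth genes 22. Syt1, the calcium sensor of vesicle release, was at 10.1, 8.63 and 11.1 CPM in WT P9, 0.932, 0.409 and 1.12 in IRF8KO P9, 2.26, 1.37 and 1.50 in WT P14 and 18.7, 25.7 and 74.4 in IRF8KO P14 and gave 8.09 ± 0.77 (SE, adjusted p = 2.01e-06). Mapt, which encodes the axonal protein tau, gave 8.91 ± 0.80 (SE, adjusted p = 1.56e-06) with means of 22.7, 2.19, 1.49 and 69.9 CPM, and the nuclear neuronal marker gene Rbfox3 gave 7.55 ± 0.78 (SE, adjusted p = 3.78e-06) with means of 11.7, 1.51, 3.31 and 80.7 CPM. Cerebellar neuron genes were called higher for 10 of 12. Among all genes above 10 CPM in some group and with more than 3 reads in each, the noncoding neuronal RNA Snhg11 had the largest value, 12.40 ± 1.09 (SE, adjusted p = 1.56e-06), followed by Tenm2, a teneurin of synapses, at 11.84 ± 1.17 (SE, adjusted p = 2.69e-06). Snhg11 was at 102, 73.9 and 93.3 CPM in WT P9, 1.65, 0.409 and 2.67 in IRF8KO P9, 9.95, 1.37 and 3.48 in WT P14 and 248, 281 and 896 in IRF8KO P14.

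The neuronal lists were not uniform. Syngr1, a vesicle protein, was higher in IRF8KO at both ages, with means of 304, 1132, 439 and 1433 CPM in the order WT P9, IRF8KO P9, WT P14 and IRF8KO P14 and an interaction of -0.19 ± 0.62 (SE, adjusted p = 0.859). Tubb2b, a tubulin gene, was lower in IRF8KO at both ages (-1.05 ± 0.59, adjusted p = 0.221). Summed levels, which follow the most abundant members, had another order: over all neuronal lists they averaged 1125 CPM in WT P9 and 2125 in IRF8KO P9, and 849 in WT P14 and 3993 in IRF8KO P14. The channel list averaged 165 and 804 CPM in WT and IRF8KO at P9, and 72.8 and 848 at P14. The vesicle list averaged 515 and 1238 CPM at P9, where Syngr1 made up most of the IRF8KO sum, and 660.4 and 1804 at P14.

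Glial genes were called higher for some members of each list. Of 47 tested, 25 were called higher (53.2%) and 0 lower, beside 18.2% and 2.85% of all genes, with a median of 2.99. The 25 were 13 of 17 astrocyte genes, 6 of 13 precursor genes and 6 of 17 genes of myelinating oligodendrocytes, which became 10 without IRF8KO P9 replicate 3. Slc1a2, the astrocytic glutamate transporter gene, was at 5.92, 4.44 and 4.23 CPM in WT P9, 1.36, 2.21 and 2.53 in IRF8KO P9, 2.57, 0.772 and 4.51 in WT P14 and 17.6, 21.8 and 43.99 in IRF8KO P14 and gave 4.65 ± 0.74 (SE, adjusted p = 0.000178). The myelin gene Mbp was at 69.6, 68.2 and 73.8 CPM in WT P9, 98.04, 111 and 103 in IRF8KO P9, 172, 91.5 and 133 in WT P14 and 385, 534 and 1241 in IRF8KO P14. For Mbp, in contrast to Gria2 and Syt1, IRF8KO was above WT at both ages, and the interaction was 1.88 ± 0.52 (SE, adjusted p = 0.0145). Cnp, another myelin gene, had 204, 82.3, 272 and 94.7 CPM and no call (-0.22 ± 0.52, adjusted p = 0.803). With reads outside genes as a covariate, 12 of the 47 glial genes were called higher against 74 of the 89 neuronal ones.

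Pfkp and several broadly expressed genes shared the neuronal order. Pfkp, the platelet type phosphofructokinase of glycolysis, was at 43.02, 35.7 and 38.4 CPM in WT P9, 2.87, 1.31 and 3.73 in IRF8KO P9, 2.15, 0.772 and 1.98 in WT P14 and 27.3, 30.02 and 68.3 in IRF8KO P14 and gave 8.55 ± 0.72 (SE, adjusted p = 1.30e-06), and it was the only called gene of 17 in the glycolysis list. Among genes above 20 CPM in every group, the nuclear noncoding RNA Malat1 had the largest higher value, at 3.35 ± 0.64 (SE, adjusted p = 0.000942). Malat1 was at 334, 270.1 and 392 CPM in WT P9, 154, 84.01 and 257 in IRF8KO P9, 115, 196 and 349 in WT P14 and 732, 904 and 1713 in IRF8KO P14, with IRF8KO below WT at P9 and above it at P14. The splicing factor gene Srrm2 gave 2.27 ± 0.45 (SE, adjusted p = 0.00131), the calcium pump gene Atp2b1 2.56 ± 0.55 (SE, adjusted p = 0.00228) and the lipid kinase gene Pi4ka 1.92 ± 0.38 (SE, adjusted p = 0.00123). The share of reads outside genes was highest in IRF8KO P14 as well, and with that share as a covariate Malat1 was at 2.24 (adjusted p = 0.0515).

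**Figure D5:**
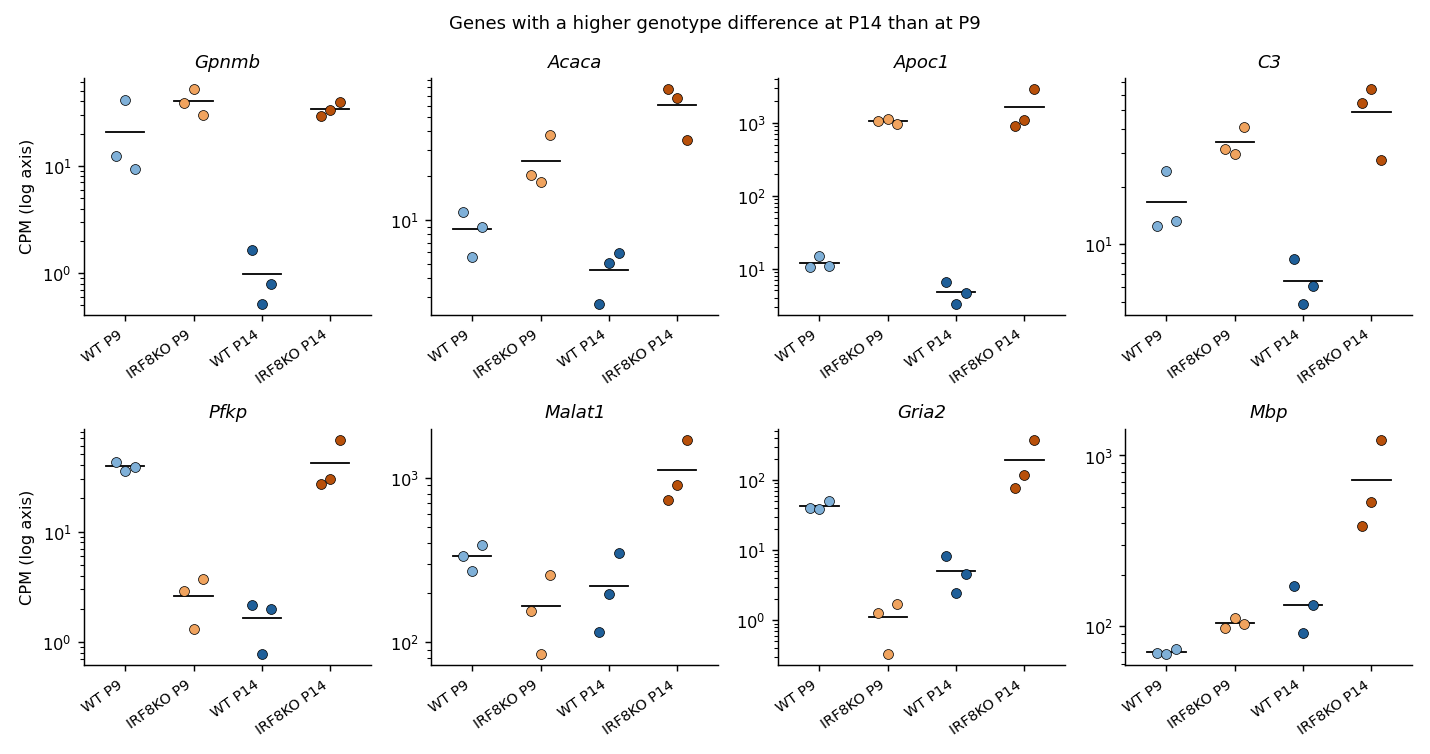
CPM on a log axis in each of the 12 libraries (points, with group means as lines) for 8 genes with a called higher interaction. WT P14 is the lowest group for Gpnmb, Acaca, Apoc1 and C3, while Pfkp, Malat1 and Gria2 are high in WT P9 and IRF8KO P14.

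Markers of other cells were counted as well, beside 18.2% of all genes called higher. Of 10 choroid plexus and ependyma genes only 3 passed the filter on low counts. All 3 were called higher, but 2 of them had a group at 3 reads or fewer, so their share is not comparable with that of all genes. The other was Ttr, the transthyretin gene, at 15.4, 4.52 and 29.5 CPM in WT P9, 2.73, 4.33 and 2.46 in IRF8KO P9, 3.39, 0.0858 and 0.792 in WT P14 and 3.28, 9.59 and 41.004 in IRF8KO P14, with the genotypes overlapping at P14. Endothelial and mural genes were called higher for 2 of 14 (14.3%), dendritic cell genes for 2 of 9 (22.2%) and monocyte genes for 1 of 9 (11.1%), all of them with a group at 3 reads or fewer except Vcan (5.04 ± 1.38, adjusted p = 0.0138). The 2 endothelial calls became 1 without 8 of the 12 libraries taken 1 at a time and 4 without WT P14 replicate 1. Neutrophil, lymphocyte and erythroid lists had 0 calls of 5, 6 and 8 genes. At an unadjusted p below 0.05 these lists had 0, 1 and 1 genes, and limma-voom called 7 erythroid genes higher. Without IRF8KO P9 replicate 1, edgeR called 6 of the 8 erythroid genes higher, and the list summed to 799, 1.31 and 56.9 CPM in the 3 IRF8KO P9 libraries.

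The neuronal level moved with the tested contrast itself. Across the libraries 94.9% of the variance of the neuronal mean log2 CPM lay between the 6 groups, so its effect and the interaction cannot be told apart by a covariate. With it in the fit, edgeR called 0 genes in either direction at the adjusted threshold, with 2534 higher and 2524 lower at an unadjusted p below 0.05, and the median SE went from 0.80 to 2.20. Of 25 named genes with a called lower value, 15 then had an estimate further below 0, 8 one nearer to 0 and 2, Rab5c and Siglecg, one above 0. Tgm2 was at -5.84 and Mcm5 at -3.85, while Mcm2 was at -1.19, Etv5 at -0.66 and Ccdc8 at -1.38, none of them past the threshold. The part of neuronal RNA in the results on macrophage genes was not tested beyond this. The pan-macrophage list summed to 61967, 86634 and 78837 CPM in WT P9 and 58808, 71795 and 49163 in IRF8KO P9. At P14 it summed to 143270, 116870 and 96051 CPM in WT and 42572, 51070 and 77850 in IRF8KO. The mean sum went from 75812 to 118730 CPM in WT and from 59922 to 57164 in IRF8KO.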

How the data were processed

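Per the submitters' processing notes, the authors used bcl2fastq, STAR 2.5.2b, Picard 2.17.11 and featureCounts of Subread on mm10; parameters are not given in the sources used here. cDNA was amplified with a SMART-Seq v4 kit and tagged with Nextera XT, per the labels' protocols, so strand is not kept, and the 2 strand columns held nearly equal totals (ratio 0.996 to 1.00). The deposited files hold raw read counts per gene without molecular identifiers. The unstranded column was used, and 4 entries per library that name no gene (21.9% to 37.3% of reads in the 12 libraries) were dropped. Reads shared by overlapping genes were left as ambiguous by the counting (7.10% to 9.05%). Gene names and positions come from GENCODE M21 (GRCm38), which matched 55536 of 55536 identifiers.

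The 16 libraries were fitted as 6 groups with edgeR 4.0.16 in R 4.3.3 (filterByExpr, TMM scaling, quasi-likelihood test, 10 residual degrees of freedom), and the interaction was a contrast of 4 groups. CPM use TMM-scaled totals. Fitted values are not given for genes with 3 reads or fewer in a group. The scripts were tested on simulated data. Alternatives were other scalings and filters, DESeq2 1.42.0, limma-voom 3.58.1, the 12 libraries alone, 2 covariates, a replicate block and leaving out each library. The members, the 33 gene lists (673 of 676 symbols matched) and the tests were chosen with earlier results of these data known. Genes were named by rule: up to 4 called genes per macrophage list and 3 per other list by smallest adjusted p, or the 2 most abundant where none was called, the 6 largest interactions in each direction above 10 CPM, the 8 largest above 20 CPM in every group, and up to 5 per direction among genes called oppositely at both ages. Some genes that the rule names are not reported here. Other list members named for their known role (such as Mki67, Csf1r, P2ry12, Apoe, Syngr1 and Igf1) were chosen after their values were seen. Promoter windows were found for 11771 of 18290 tested symbols.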

Additional observations from a re-analysis of the deposited data

Results flagged for a closer look

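The genotype difference was not the same at the 2 ages for 3334 genes whose interaction was above 0 and 522 whose interaction was below 0, by edgeR's test of the difference itself. The values that follow are log2 interactions of named genes that passed that test. Among neuronal genes they were Gria1 9.49, Gria2 10.50, Grin2b 8.76, Cacna1b 10.85, Scn8a 9.77, Syt1 8.09, Pclo 8.31, Slc17a7 6.63, Mapt 8.91, Rbfox3 7.55, Grm4 7.61, Neurod1 6.11 and Zic1 7.68. Genes outside the lists with the largest higher values were Snhg11 12.40, Tenm2 11.84, Fam19a1 11.21, Lrp1b 11.04 and Negr1 10.80. Glial and precursor genes had Slc1a2 4.65, Slc4a4 5.56, Ndrg2 2.53, Ptprz1 6.16, Vcan 5.04, Nfasc 8.60 and Mbp 1.88. Macrophage-list genes with higher values were Gpnmb 4.16, Fabp3 3.71, Fabp5 1.74, Acaca 2.16, Apoc1 1.97, Scd1 4.89, C3 1.88, Tyro3 4.81, Mx1 4.27, Zbp1 2.56, Ciita 4.55 and Pfkp 8.55. Levels were low for Fabp3, Scd1, Tyro3 and Zbp1, whose highest group means were 2.26, 2.98, 2.95 and 5.32 CPM. Abundant genes and a choroid plexus gene with higher values were Malat1 3.35, Srrm2 2.27, Luc7l2 2.28, Atp2b1 2.56, Tmem63b 2.42, Fads2 2.14, Pi4ka 1.92 and Ttr 6.06. Lower values in the macrophage and handling lists were Mcm2 -2.40, Mcm3 -1.80, Mcm5 -2.27, Birc5 -2.10, Klf2 -2.27, Etv5 -1.73, Eng -1.76, Tgfb1 -1.70, Coro1a -1.86, Rac2 -1.50, Rhob -1.28, Myd88 -1.48, Dnajb1 -1.36 and Zfp36 -1.51. Lower values outside the lists were Tgm2 -5.20, Hs3st2 -4.28, Ccdc8 -4.02, Cdca7 -3.67, Siglecg -3.33, Igfbp4 -2.97, Jup -2.24, Slc7a5 -2.15, Rab5c -2.12 and Zfpm1 -2.12.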

How the results depend on the processing

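The number of higher calls was more stable than that of lower calls. With RLE size factors 269 genes were lower, with scaling to the pan-macrophage list 174, with macrophage-list genes lower at 16, and with no filter on low counts 30 macrophage genes were higher. With a filter of 5 CPM in 3 libraries, 11526 genes were tested. The counts were then 1415 higher, 274 lower, 781 opposite at both ages and 10 macrophage genes higher. DESeq2 called 29 macrophage genes higher. The 12 libraries alone gave 1724 lower, 73 macrophage genes lower and 1 neuronal or glial gene lower. With reads outside genes as a covariate 84 were lower, with 32 macrophage genes higher and 6 lower, and Ctsd (1.51), Myd88 (0.012), Rac2 (0.038) and mt-Cytb (-2.02) changed sign, as did 8 named genes without a call in either fit, Irf8 (0.36) and Lgmn (0.83) among them. With the neuronal mean as a covariate the counts were 0 higher, 0 lower and 361 opposite at both ages, and the sign changed for Apoc1 (-2.98), Ciita (-4.12), Fabp3 (-1.21), Fabp5 (-2.09), Fads2 (-2.56), Luc7l2 (-0.038), Mbp (-3.24), Ndrg2 (-1.46), Pi4ka (-0.43), Rab5c (0.99), Siglecg (0.65), Slc17a7 (-0.29), Slc1a2 (-0.26), Slc4a4 (-0.20), Srrm2 (-0.63), Tmem63b (-2.60), Ttr (-7.29) and Tyro3 (-0.43), and for 5 named genes without a call in either fit. The cause of these differences was not tested. Without 1 library the counts ran from 2935 to 3816 higher, 60 to 1123 lower, 909 to 1578 opposite, 11 to 23 and 7 to 39 macrophage genes higher and lower, and 97 to 109 and 0 to 1 neuronal or glial genes higher and lower. The lowest lower counts came without WT P9 replicate 1 (60) and IRF8KO P9 replicate 1 (73), and the highest without IRF8KO P14 replicate 3 (1123). Deviations from group means correlated at -0.37 to 0.39 between libraries of equal replicate number and at -0.43 to 0.39 between those of other numbers. These ranges do not settle whether the numbers mark pairs. A replicate block gave 3337 higher and 657 lower. At 10.4 to 14.8 M reads, folds of genes with 3 reads or fewer in a group are not measurable.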
